A study of Mus musculus with 15 samples.

Results

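The glycerophosphodiester phosphodiesterases are a family of enzymes that share a catalytic domain and split phosphodiester bonds of glycerol-based lipids. The genes described here are Gdpd3, Gdpd1, Gdpd2, Gdpd5 and Gde1, taken as every probe that the platform annotation names for them. They are 5 of the 16593 genes named on the array and are measured by 8 of its 25697 probes: 3 probes for Gde1, 2 for Gdpd2 and 1 each for the others. Gdpd3 was chosen by its difference between the genotypes on the heart arrays, so its heart values are given as a description without a test. The other members were taken by family name.

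Total RNA of liver and heart from 17-week-old males (mouse strain C57BL/6J-Tyr) was hybridised to one-colour Illumina bead arrays. The groups were wild-type mice and mice homozygous for an ABCB5 mutation, giving livers of 4 wild-type and 3 mutant animals and hearts of 4 animals per genotype. Abcb5 encodes an ATP-binding cassette transporter. The kind of mutation is not stated in the labels, and 0 probes carried the name Abcb5, so the genotype labels were not checked by the level of the mutated gene. Each array within a tissue was a different mouse, and mutant mouse 4 is represented by its heart alone.

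Several enzymes of this family act on lipids that have already lost acyl chains or carry only a head group. Gdpd3 and Gdpd1 encode lysophospholipases D, which release lysophosphatidic acid, a signalling lipid with its own G protein-coupled receptors. Gde1 encodes a broadly expressed membrane enzyme that cleaves glycerophosphoinositol and glycerophospho-N-acylethanolamines, the latter being precursors of anandamide and its relatives. Gdpd5 encodes a multi-pass membrane enzyme known for degrading glycerophosphocholine and for releasing proteins with a glycosylphosphatidylinositol anchor in developing neurons. Gdpd2 encodes a related multi-pass enzyme known from bone-forming cells.

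The genes of 4 members were matched in RefSeq's promoter table for GRCm38.p6. The windows reach from 250 bases before to 50 bases after the start of transcription. The windows of Gdpd3, the member with the large heart difference, and of Gde1, the member seen above background on every array, are shown on the strand of the gene with the 50 bases from the start on in capitals. Gdpd3 lies on the + strand at chr7:126766164-126766463 and Gde1 on the - strand at chr7:118705689-118705988.
Gdpd3: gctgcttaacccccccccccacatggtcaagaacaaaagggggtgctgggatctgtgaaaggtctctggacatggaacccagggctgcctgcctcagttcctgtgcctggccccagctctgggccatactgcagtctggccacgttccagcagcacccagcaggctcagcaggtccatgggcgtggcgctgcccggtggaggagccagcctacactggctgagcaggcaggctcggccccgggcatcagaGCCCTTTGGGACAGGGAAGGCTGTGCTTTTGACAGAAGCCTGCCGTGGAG
Gde1: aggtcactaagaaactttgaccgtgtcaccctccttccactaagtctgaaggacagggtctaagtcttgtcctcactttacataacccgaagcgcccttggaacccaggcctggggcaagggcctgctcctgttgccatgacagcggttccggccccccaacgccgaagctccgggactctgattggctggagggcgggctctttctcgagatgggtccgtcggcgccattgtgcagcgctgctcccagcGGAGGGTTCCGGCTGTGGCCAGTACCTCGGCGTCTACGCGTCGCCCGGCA

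The windows differed in their CpG dinucleotides. The Gdpd3 window held 7 CpG, the median of the 32851 promoters in the table, at a GC content of 64.3%. The Gde1 window held 22 CpG, more than 76.9% of promoters, at a GC content of 62.3%, and the Gdpd1 window 25 CpG, more than 81.6%. The X-linked Gdpd2 had 2 windows, with 2 and 9 CpG. The letters searched on both strands were TATAAA (the TATA box), CCAAT (the CCAAT box), GGGCGG (the GC box), CACGTG (the E-box), TGACGTCA (the cyclic AMP response element), TGANTCA (the AP-1 site) and GATAAG (the GATA site). None of them was in the Gdpd3 or the Gdpd1 window. The Gde1 window held 1 match of CCAAT, which 37.4% of all promoters hold, and 1 of GGGCGG, which 35.7% hold. The first Gdpd2 window held 1 match each of TATAAA, found in 13.6% of promoters, CCAAT and GATAAG, found in 7.44%. CACGTG was found in 7.15% of promoters, TGACGTCA in 1.79% and TGANTCA in 7.81%.

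Intensities were the authors' deposited normalized values on a linear scale. Liver and heart arrays carried separate scales, with medians of 113.105 to 113.112 in liver and 8.04 to 8.08 in heart, so levels were compared only within a tissue. A probe counted as above background when it exceeded 114.28 to 114.30 on the liver arrays or 1.19 to 1.22 on the heart arrays, and it was tested when this held on at least 3 arrays of the tissue. The hepatocyte markers summed to 37760 to 43110 above background on the liver arrays and to 10.4 to 26.1 on the heart arrays. Alb was never above background in heart, but it was faint in liver too, with mean log2 intensities of 5.08 and 5.06 in wild-type and mutant livers. Fgb was above background on 1 wild-type and 0 mutant livers, and Ttr was above background on every heart. The cardiomyocyte markers summed to 58000 to 118400 in heart and to -6.54 to 15.03 in liver, where Myh6 and Actc1 were never above background. The lung-marker list summed to 3158 on wild-type heart 2 and to 1415 on mutant heart 4, against 5.09 to 34.6 on the other hearts. These 2 sums rest mainly on Scgb1a1, with mean log2 intensities of 6.66 in wild-type and 5.87 in mutant hearts. The means of Sftpc, Sftpb and Sftpd were 4.14 to 4.71. Precision is limited by how few arrays each group holds.

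Gdpd3 was faint in the wild-type hearts and bright in the mutant hearts. The intensity of its probe was 18.7, 13.1, 21.8 and 15.1 in wild-type hearts 1 to 4. It was 529.2, 1134.5, 590.4 and 867.6 in mutant hearts 1 to 4. The groups did not overlap: the lowest mutant heart lay far above the highest wild-type heart, and all 8 arrays were above background. Group means were 17.2 ± 3.87 and 780.4 ± 278.2 (SD, n = 4 each), a ratio of 45.4.

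The genotype difference was computed as the difference of log2 intensity after background correction and addition of an offset of 16, mutant minus wild type. For Gdpd3 in heart it was 4.43 ± 0.20 (SE, n = 4 per genotype), or 21.6-fold. The SE here and below is limma's, which draws the spread of a probe toward that of all tested probes. The SD of the Gdpd3 log2 values was 0.16 in wild-type and 0.50 in mutant hearts. The Gdpd3 difference had the largest size among all 18493 probes tested in heart, ahead of Hbb-bt, a beta-globin, at -3.06 and Abhd1 at -2.61. As Gdpd3 was chosen by this difference, its rank is a description only. The fold depends on how the faint wild-type values are treated. With an offset of 50 the difference was 3.52, or 11.5-fold, and when intensities were floored at 16 without background correction it was 5.37, or 41.4-fold. Leaving out any 1 of the 8 hearts gave 4.23 to 4.59.

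Among the mutant hearts, mutant heart 2 had the highest Gdpd3 value and mutant heart 1 the lowest. Whether more cells or more RNA per cell carried the transcript cannot be told apart in these tissue samples.

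**Figure D1:**
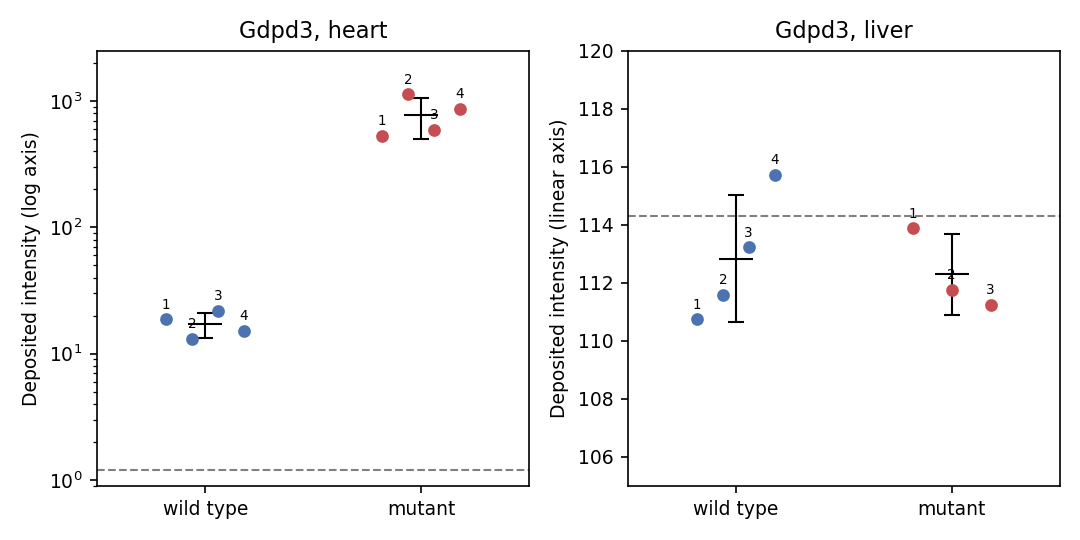
Deposited intensity of the Gdpd3 probe in heart (log axis) and liver (linear axis), with 1 point per array numbered by replicate, bars for mean and SD and a dashed line at the mean intensity above which a probe counted as above background. The mutant hearts lie between 529.2 and 1134.5 and the wild-type hearts between 13.1 and 21.8, while in liver 1 of 7 arrays is above the line.

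In liver Gdpd3 was at background in both genotypes. The intensity was 110.8, 111.6, 113.2 and 115.7 in wild-type livers 1 to 4 and 113.9, 111.8 and 111.2 in mutant livers 1 to 3. The genotypes overlapped, and only wild-type liver 4 was above background. The probe therefore did not enter the liver test, and no fold is given. Livers and hearts 1 to 3 of the mutant group came from the same mice, so the 3 mice with bright Gdpd3 in the heart had their liver signal at background.

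Several cell-type marker lists were read beside the Gdpd3 difference in heart. Of the red-cell markers 3 of 5 fell (Hbb-bt, Alas2 and Slc4a1, limma adjusted p = 0.0169, 0.000781 and 0.0413), where 0.838% of all tested heart probes were called lower. Hba-a1 stood at -0.43 and Epb42 at 0.02 (adjusted p = 0.295 and 0.943). The summed intensity of the 5 markers was 36900 to 73790 in the wild-type and 25540 to 30280 in the mutant hearts. The part of red cells in the Gdpd3 result was not tested. Cardiomyocyte markers summed to 66120 to 118400 in wild-type and 58000 to 72900 in mutant hearts, and with limma 0 of 4 passed or had an unadjusted p below 0.05, with all 4 differences below 0 (-0.27 to -0.19). Wild-type heart 4 set the upper end of both ranges, at 73790 for red-cell and 118400 for cardiomyocyte markers against 36900 to 40170 and 66120 to 70190 in the other wild-type hearts. Without it, an alternative chosen after seeing the data, 2 of the 5 red-cell markers fell, Slc4a1 no longer passing (adjusted p = 0.0622), the cardiomyocyte differences were -0.12 to -0.04, and the Gdpd3 difference was 4.41. Epithelial markers summed to 68.5 to 109.2 in wild-type and 62.8 to 111.4 in mutant hearts, and 0 of 6 passed limma's threshold or had an unadjusted p below 0.05. Macrophage markers summed to 1456 to 2100 and 1716 to 1958, and white-fat markers to 53.0 to 643.4 and 30.3 to 530.0. Of the 5 macrophage and 3 white-fat markers tested 0 passed, and 1 of each list had an unadjusted p below 0.05. These were C1qb at 0.27 and Lep at -1.80 (limma adjusted p = 0.282 and 0.133), while Adipoq and Plin1 stood at 0.16 and 0.06. The white-fat sum was 643.4 and 510.4 on wild-type hearts 1 and 2 and 530.0 on mutant heart 4. On the other hearts it was 30.3 to 177.9. T-cell and thymus markers summed to 28.1 to 60.1 and 21.8 to 38.7, and 0 of 3 passed or had an unadjusted p below 0.05. Of the arrays with high lung-marker sums, which rest mainly on Scgb1a1, leaving out wild-type heart 2 gave a Gdpd3 difference of 4.38. Leaving out mutant heart 4 gave 4.36. Whether the cells of any of these lists had a part in the Gdpd3 difference was not tested.

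Gdpd1, the other lysophospholipase D of the family, was above background in every heart without separating the genotypes. Its intensity was 200.1, 204.3, 198.1 and 209.3 in the wild-type hearts and 177.8, 171.1, 217.8 and 219.7 in the mutant hearts. Mutant hearts 1 and 2 lay below all wild-type hearts and mutant hearts 3 and 4 above them. The log2 difference was -0.05 ± 0.10, with a 95% confidence interval of -0.27 to 0.18 (limma adjusted p = 0.870).

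In liver Gdpd1 lay near background. The intensity was 119.3, 132.7, 114.0 and 112.6 in wild-type and 120.2, 129.9 and 128.2 in mutant livers, with 2 of 4 and 3 of 3 above background. The groups overlapped, with the highest and the lowest value both in the wild type. The log2 difference was 0.35 ± 0.22 (interval -0.14 to 0.84, limma adjusted p = 0.613).

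Gde1 was above background on all 15 arrays with each of its 3 probes. Probe ILMN_2986315 gave 1253.2, 1352.5, 1234.2 and 1140.4 in the wild-type hearts. In the mutant hearts it gave 1560.3, 1588.9, 1650.7 and 1980.3. Every mutant heart was above every wild-type heart, by a log2 difference of 0.44 ± 0.11 (interval 0.21 to 0.66, 1.35-fold), which missed the threshold over all probes (limma adjusted p = 0.0582). It passed with an offset of 50 (adjusted p = 0.0238), with limma's trend and robust options (0.00892) and when all 15 arrays were fitted together (0.0121), and not under the other 15 alternatives, where the adjusted p was 0.0505 to 0.142.

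The other probes of Gde1 gave smaller heart differences of the same sign, with overlapping groups. Probe ILMN_2634264 stood at 227.8 to 273.4 in wild-type and 241.6 to 337.7 in mutant hearts (log2 difference 0.19 ± 0.12, limma adjusted p = 0.500). Probe ILMN_2676481 stood at 304.3 to 364.4 and 326.2 to 423.1 (0.15 ± 0.10, adjusted p = 0.524). With all 3 probes mutant heart 4 was the highest of the 8 hearts and wild-type heart 4 the lowest. The brightest Gdpd3 heart, mutant heart 2, was thus not the brightest for Gde1.

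The Gde1 probes were also higher on average in the mutant livers, and 1 of the 3 separated the genotypes. Probe ILMN_2676481 gave 274.2, 286.6, 293.9 and 255.2 in wild-type and 312.9, 320.6 and 313.9 in mutant livers. The groups did not overlap, at a log2 difference of 0.28 ± 0.12 (interval 0.01 to 0.55, limma adjusted p = 0.419). Probe ILMN_2986315, the one that separated the hearts, gave 850.2, 844.7, 852.0 and 898.0 in wild-type and 895.7, 938.7 and 987.8 in mutant livers. Wild-type liver 4 overlapped mutant liver 1, and the difference was 0.14 ± 0.11 (adjusted p = 0.701). Probe ILMN_2634264 stood at 224.2 to 255.0 and 239.0 to 260.6, also with overlap (0.13 ± 0.13, adjusted p = 0.751).

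**Figure D2:**
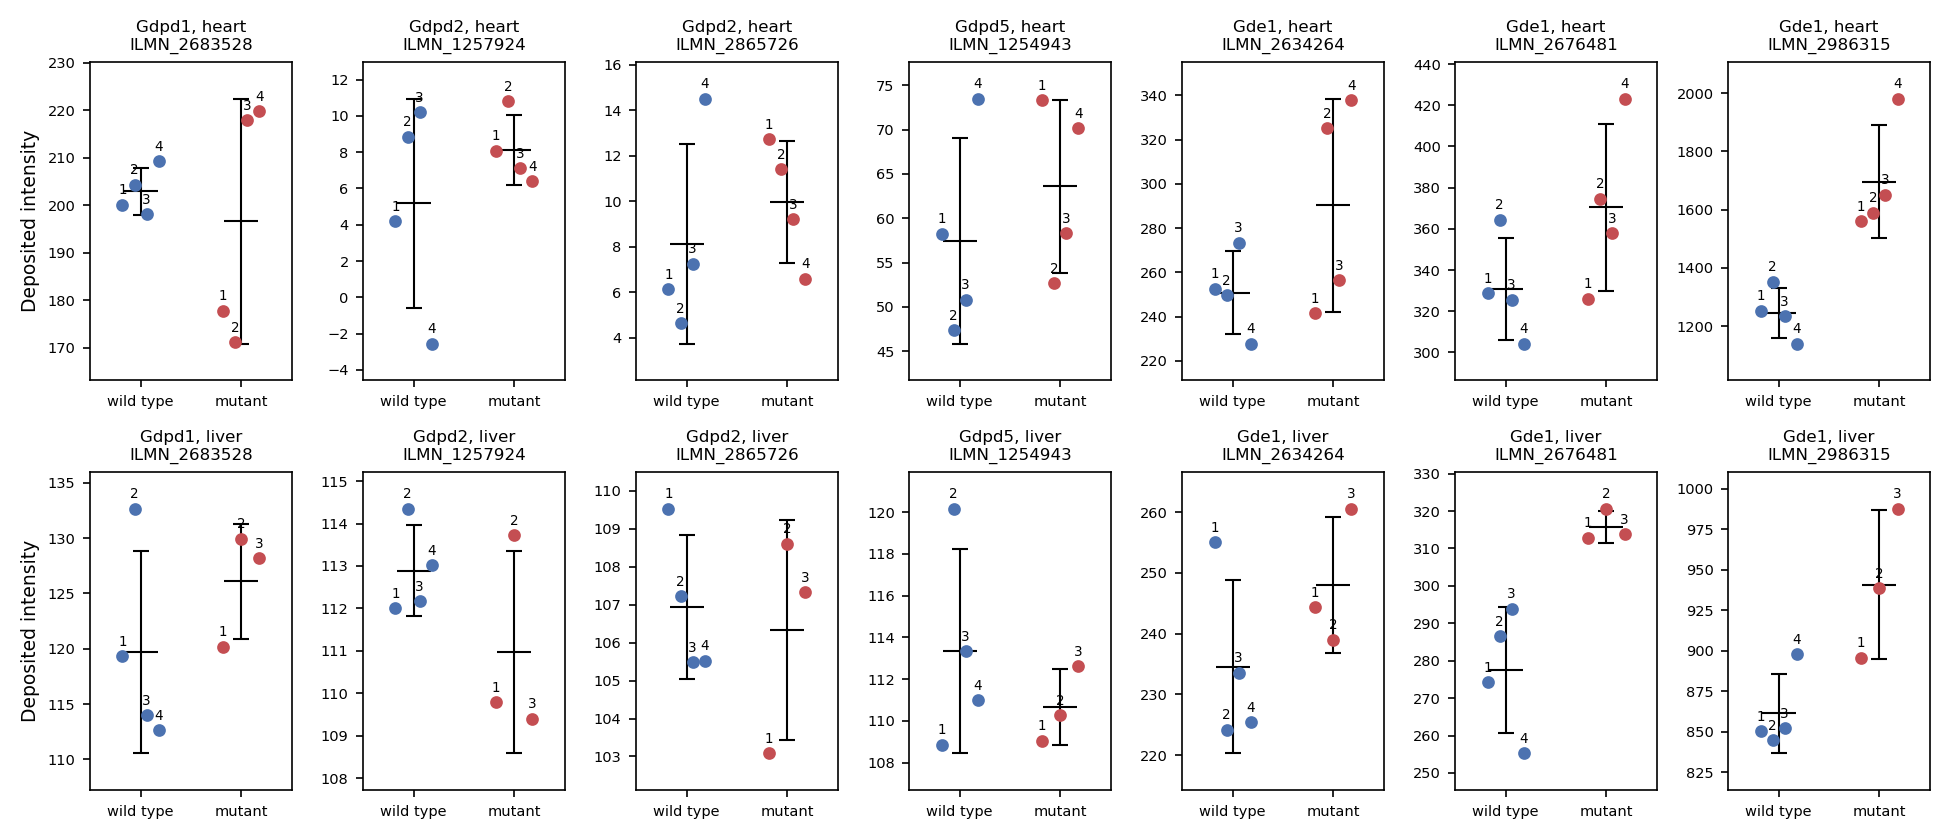
Deposited intensity (linear axes, each with its own range, not starting at 0) of the 7 probes of Gdpd1, Gdpd2, Gdpd5 and Gde1 in heart (top) and liver (bottom), with 1 point per array numbered by replicate and bars for mean and SD. The groups are apart for Gde1 probe ILMN_2986315 in heart (1140.4 to 1352.5 and 1560.3 to 1980.3) and for Gde1 probe ILMN_2676481 in liver (255.2 to 293.9 and 312.9 to 320.6), and overlap in the other panels.

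Gdpd5 was above background in every heart and at background in liver. Its intensity was 58.3, 47.3, 50.8 and 73.5 in the wild-type and 73.3, 52.7, 58.3 and 70.2 in the mutant hearts. The groups spanned nearly the same range, and the log2 difference was 0.12 ± 0.13 (interval -0.16 to 0.39, limma adjusted p = 0.719). In liver it lay between 108.9 and 120.2, with 1 of 4 wild-type and 0 of 3 mutant arrays above background.

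Gdpd2 was faint in heart and at background in liver. Probe ILMN_1257924 read -2.55 to 10.2 in wild-type and 6.40 to 10.8 in mutant hearts, and probe ILMN_2865726 read 4.63 to 14.5 and 6.59 to 12.7. The groups overlapped for both probes (log2 differences 0.16 ± 0.14 and 0.11 ± 0.12, limma adjusted p = 0.642 and 0.744). The first probe was above background on 3 of 4 wild-type and 4 of 4 mutant hearts and the second on every heart. In liver 1 of 7 arrays was above background with the first probe and 0 of 7 with the second.

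All 8 probes entered the heart test and 4 of the 8, those of Gde1 and Gdpd1, the liver test. In heart, limma called 1.98% of the 18493 probes tested at an adjusted p below 0.05, and 10.1% separated the genotypes without overlap (5.47% higher and 4.58% lower in the mutants). An unadjusted p below 0.05 was found for 15.7% of heart and 11.4% of liver probes, and 51.23% and 49.33% of the differences were above 0. Of the 7 probes other than Gdpd3 in heart, 0 were called, 1 had an unadjusted p below 0.05 and 1 separated the genotypes. Their median log2 difference was 0.15, with 6 of 7 above 0, where the median over all tested heart probes was 0.0051. Of these 7 probes 3 measure Gde1 and 2 measure Gdpd2, so they are not independent of each other, and the 1 below 0 was that of Gdpd1. In liver 0.100% of 11945 probes were called (0.0670% higher and 0.0335% lower) and 11.2% separated the genotypes (5.40% higher and 5.77% lower). Of the 4 member probes tested there 0 were called, 1 had an unadjusted p below 0.05 and 1 separated the genotypes. Their median difference was 0.21, with all 4 above 0, against -0.0036 over all tested liver probes. As 3 of these 4 probes measure Gde1, they are not independent of each other.

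Gdpd3, Gdpd5 and Gde1 lie on chromosome 7, Gdpd1 on chromosome 11 and Gdpd2 on the X chromosome. The genes next to Gdpd3 were read to see whether the heart difference extended along the chromosome. Of the 10 genes on each side in the order of the RefSeq GRCm38.p6 annotation, 14 had probes and 13 were tested in heart. With limma 0 of their 17 probes were called and 0 separated the genotypes. An unadjusted p below 0.05 was found for 3 of the 17, close to the 15.7% of all heart probes. These 3 belonged to Sult1a1, a sulfotransferase, at a log2 difference of 0.36 ± 0.15, Slx1b, a nuclease subunit, at 0.35 ± 0.14, and Ppp4c, a protein phosphatase catalytic subunit, at 0.21 ± 0.09 (adjusted p = 0.281, 0.252 and 0.297). The 17 differences ran from -0.20 to 0.36.

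The gene directly before Gdpd3 in that order, Mapk3, which encodes the kinase ERK1, had no probe here. The gene directly after it, Ypel3, had 2 probes in heart, at -0.07 ± 0.11 and -0.14 ± 0.11. In liver 10 of the neighbours were tested with 11 probes. There, 0 were called and 1 had an unadjusted p below 0.05, Nupr1, a stress-induced chromatin protein (0.39 ± 0.15, adjusted p = 0.339), which also separated the livers.

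**Figure D3:**
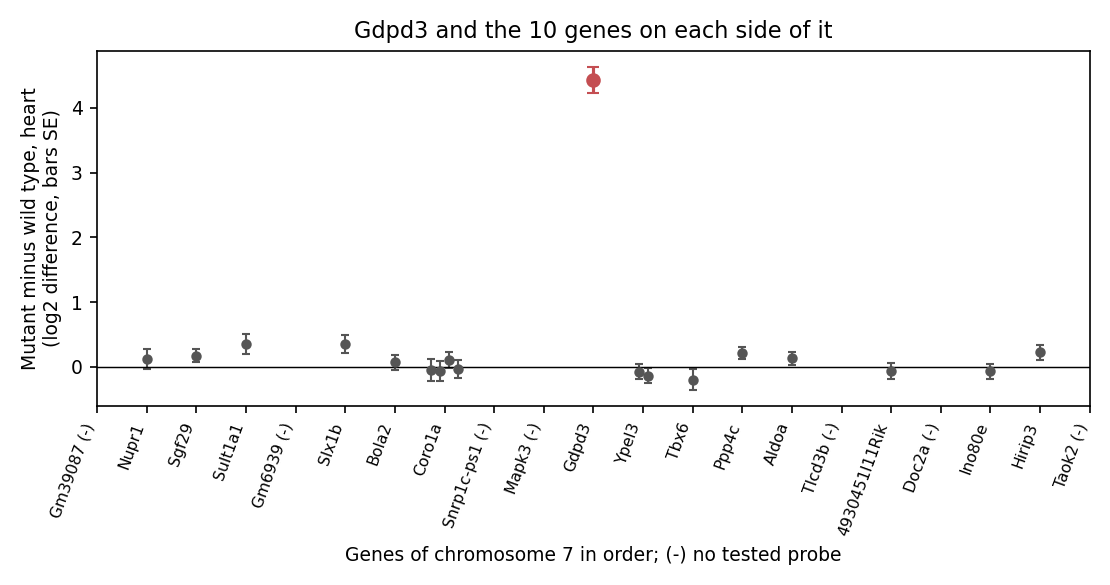
Log2 difference in heart, mutant minus wild type, of Gdpd3 (red) and of each tested probe of the 10 genes on each side of it (grey) in the order of the chromosome, with bars for SE and (-) for genes with no tested probe. Gdpd3 stands at 4.43 and the neighbours between -0.20 and 0.36.

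Genes that make or remove the lipids handled by this family were read from 5 lists. With 1 probe per gene, 44 genes of the lists were tested in heart and 32 in liver, and limma called 1 in heart, higher in the mutants, and 0 in liver, with 5 and 1 at an unadjusted p below 0.05, no larger a share than among all probes (15.7% and 11.4%). The heart background was 1.15% of probes called higher and 0.838% called lower. The gene called was Abhd4, a serine hydrolase that strips acyl chains from N-acyl phosphatidylethanolamines and yields the glycerophospho-N-acylethanolamines that Gde1 can cleave.

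Abhd4 gave 61.7, 89.6, 77.4 and 67.3 in the wild-type hearts and 147.5, 120.9, 140.4 and 120.3 in the mutant hearts. Every mutant heart was above every wild-type heart. It rose by 0.71 ± 0.12 on the log2 scale (1.64-fold, limma adjusted p = 0.00891), a call that was lost when intensities were floored at 16 without background correction (0.85, adjusted p = 0.0647, the highest of 0.000703 to 0.0647 over the alternatives). In liver it stood at 171.7 to 186.3 in wild-type and 167.1 to 175.0 in mutant arrays, with overlap (log2 difference -0.16 ± 0.12, adjusted p = 0.671).

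The other genes of the N-acylethanolamine and endocannabinoid list stayed closer to 0 in heart. Of its 13 genes 11 were tested there, with a median difference of 0.11. Napepld, which makes N-acylethanolamines in a single step, stood at 0.11 ± 0.10 (limma adjusted p = 0.675), and Faah, which degrades them, at -0.19 ± 0.12 (adjusted p = 0.478). Faah was above background on 3 wild-type and 0 mutant hearts. It entered the test through the wild type alone, so its difference is a description only. In liver 7 were tested, with a median of -0.04. There, Abhd4 had the smallest p, and Mgll, the monoacylglycerol lipase, stood at 0.10 ± 0.13 and Dagla, a diacylglycerol lipase, at -0.14 ± 0.19 (adjusted p = 0.817 and 0.841).

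On the lysophosphatidic acid side, where Gdpd3 and Gdpd1 act, 10 of 14 genes were tested in heart. With limma 0 were called and 1 had an unadjusted p below 0.05, while 9 of the 10 differences were above 0, against 51.23% of all heart probes, with a median of 0.10. The 3 with the smallest p were the receptors Lpar1 at 0.29 ± 0.12 and Lpar4 at 0.47 ± 0.24 and the phosphatase Acp6 at -0.16 ± 0.10 (adjusted p = 0.281, 0.371 and 0.460). The lipid phosphatases that remove lysophosphatidic acid, Plpp1 and Plpp3, stood at 0.17 ± 0.11 and 0.12 ± 0.14. Enpp2, which encodes the secreted lysophospholipase D autotaxin, and Lpar5 had no probe under these names. In liver 7 genes were tested, with 0 called, 0 at an unadjusted p below 0.05 and a median of -0.02. The smallest p there were those of Acp6 at 0.10 ± 0.15, Lpar4 at -0.08 ± 0.14 and Plpp3 at 0.07 ± 0.14 (adjusted p = 0.853, 0.880 and 0.901). Of this list, 2 of 7 differences were above 0 in liver. For the hydrolase, N-acylethanolamine and acyltransferase lists it was 5 of 9, 7 of 11 and 7 of 13 in heart. In liver those lists had 5 of 9, 3 of 7 and 7 of 8 above 0. None of these shares was tested.

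Lysophospholipid hydrolases and genes of glycerophosphocholine metabolism were all tested, 9 of 9 in each tissue. In heart 0 were called and 2 had an unadjusted p below 0.05, with a median of 0.0046. Chkb, a choline and ethanolamine kinase, stood at -0.38 ± 0.11 without overlap of the groups, Enpp6, a choline phosphodiesterase, at -0.47 ± 0.17 and Lypla2, an acyl-protein thioesterase and lysophospholipase, at 0.20 ± 0.10, also without overlap (limma adjusted p = 0.106, 0.197 and 0.323). In liver 0 were called and 1 had an unadjusted p below 0.05, with a median of 0.03. This was Lypla1, the close relative of Lypla2, at -0.44 ± 0.15 without overlap (adjusted p = 0.306), followed by Chka, a choline kinase, at -0.49 ± 0.23 and Lypla2 at -0.12 ± 0.12 (adjusted p = 0.443 and 0.767). Chka was above background on 3 wild-type and 0 mutant livers. It entered the test through the wild type alone, so its difference is a description only.

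Acyltransferases, which return lysophospholipids and lysophosphatidic acid to the glycerolipid pool, were tested for 13 of 13 genes in heart. There, 0 were called and 1 had an unadjusted p below 0.05, with a median of 0.04. Lpcat3, the main lysophosphatidylcholine acyltransferase of liver and gut, stood at -0.27 ± 0.10 without overlap, Agpat5 at -0.25 ± 0.12 and Mboat2 at -0.31 ± 0.16 (limma adjusted p = 0.185, 0.344 and 0.388). In liver 8 were tested, with 0 called, 0 at an unadjusted p below 0.05 and a median of 0.12. Agpat2 stood at -0.23 ± 0.15, Agpat4 at 0.17 ± 0.15 and Agpat5 at 0.15 ± 0.16 (adjusted p = 0.622, 0.714 and 0.774).

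Gpcpd1, a further gene with the phosphodiesterase domain, whose enzyme degrades glycerophosphocholine, stood at 0.10 ± 0.13 in heart and 0.11 ± 0.17 in liver (limma adjusted p = 0.767 and 0.858). Gdpd4 was not above background on enough arrays to be tested in either tissue.

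**Figure D4:**
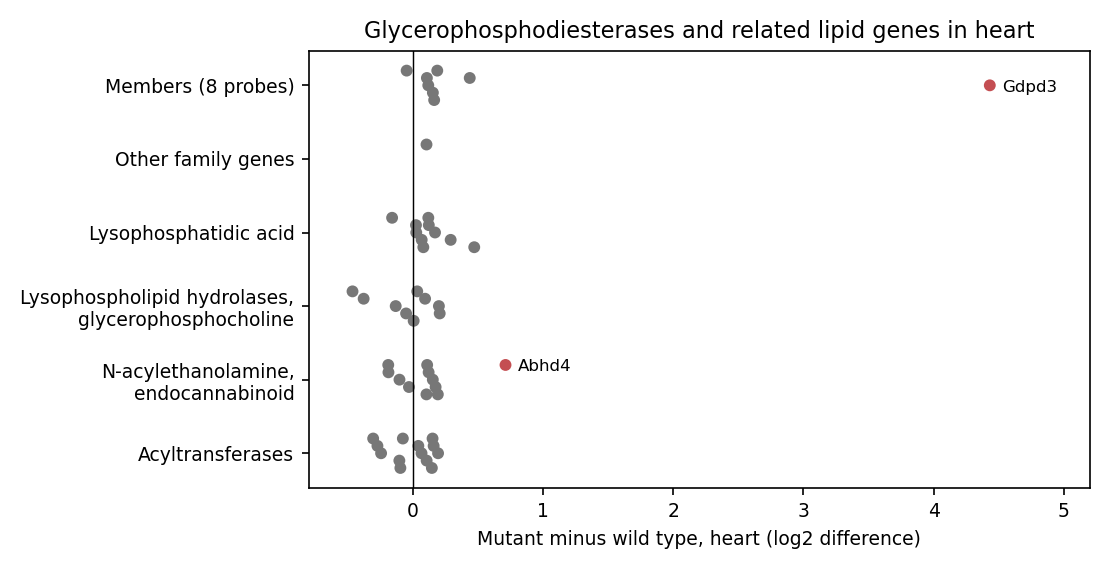
Log2 difference in heart, mutant minus wild type, with 1 point per member probe in the top row and 1 point per tested gene in the rows of the 5 lipid gene lists. Gdpd3 stands at 4.43 and Abhd4 at 0.71, and the other points lie between -0.47 and 0.47.

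The genes whose heart pattern was most like that of Gdpd3 were found by Pearson's r of the log2 values over the 8 heart arrays. They were Hr, a nuclear receptor corepressor, at r = 0.983, Il17re, a subunit of an interleukin receptor, at 0.980, Atp6v1h, a subunit of the vacuolar proton pump, at 0.979, Gbp10, a guanylate-binding protein, at 0.979, and Jpt1 at 0.977. The most opposite were Nfatc2, a transcription factor of the calcineurin pathway, at -0.989, Bmp4, a secreted growth factor, at -0.987, Inpp5k, an inositol phosphatase, at -0.983, Zfp386, a zinc-finger gene, at -0.981, and Adgrl1, an adhesion receptor, at -0.979. All 10 separated the genotypes without overlap, so r reads mainly the genotype split, which these arrays share.

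The like genes had far smaller differences than Gdpd3. Hr stood at 237.2 to 282.4 in wild-type and 472.0 to 616.4 in mutant hearts, a log2 difference of 0.99. Its lowest mutant heart was mutant heart 1, as for Gdpd3, while its highest was mutant heart 4 and that of Gdpd3 mutant heart 2. Il17re was faint, at 11.1 to 12.3 and 17.7 to 21.3, with a difference of 0.34. Zfp386 stood at 113.0 to 133.8 and 48.3 to 57.4, a difference of -1.03, and Bmp4 at 195.8 to 217.2 and 135.3 to 152.2, a difference of -0.47. Since Gdpd3 did not enter the liver test, no such genes were sought in liver.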

How the data were processed

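RNA was extracted with Trizol and a column and labelled as biotinylated cRNA with an Ambion kit, per the labels' protocols. The software was GenomeStudio 2011.1, per the submitters' processing notes. The authors deposited a table of normalized linear intensity per probe, and how they normalized it is not given in the sources used here. In all, 15 sample columns of a second, non-normalized table matched no label and were not used. Of the probes 23978 had 1 gene symbol, 0 several and 1719 none, and symbols were updated through gene identifiers.

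For each array the background was the mode of its lower values with the SD taken from values under that mode. The normexp model was applied with these, an offset of 16 was added and log2 taken. A probe was above background at a normal p below 0.05. Each tissue was fitted on its own for the genotype difference (limma 3.58.1, R 4.3.3, functions lmFit and eBayes, Benjamini-Hochberg over all tested probes, threshold 0.05). On simulated data with 200 changed probes per tissue, the fit called 93% of changes of 1 log2 unit and 99% of 2 units in heart (18493 probes, 13 false calls), and 84% and 100% in liver (11945 probes, 7 false calls). The simulated noise was normal and independent between probes, with no effect shared by the probes of an array. Smaller changes, such as those of the members other than Gdpd3, were not simulated. Lists used 1 probe per gene, the brightest in the tissue, and named every gene called or up to 3 with the smallest p. Genes named beyond that rule were chosen after their values were seen. The members and lists were chosen with earlier results of these data known. Alternatives changed the offset, background, filter, scaling, variance model, blocks and samples.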

Additional observations from a re-analysis of the deposited data

Results flagged for a closer look

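In 24 groups of 4 arrays (8 probes in 3 groups each) 1 value stood apart from its group by Dixon's criterion, which chance alone gives in about 1 of 20 groups. It was Gde1 probe ILMN_2986315 in wild-type liver 4, at an intensity of 897.96 against 844.7 to 852.0 in the other wild-type livers. This array is the one that made the genotypes overlap for that probe in liver.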

How the results depend on the processing

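Of 216 alternative values for the 8 member probes 211 kept the side of the threshold or stayed within the replicate SD. In heart Gdpd3 moved with an offset of 50 (3.52) and with a floor of 16 (5.37), and leaving out 1 heart gave 4.23 to 4.59. Gde1 probe ILMN_2986315 passed in heart under 3 alternatives. The heart count of 367 called probes was 577 with an offset of 50, 130 with the floor, 604 with trend and robust settings, 237 with the replicate block and 576 when all arrays were fitted together. It was 198 to 292 without 1 heart (omitting wild-type heart 1 gave 211, wild-type heart 3 gave 198, mutant heart 1 gave 226 and mutant heart 3 gave 198). The liver count of 12 was 5 with the floor, 0 without a filter (limma, 2064 at an unadjusted p below 0.05), 37 with trend and robust settings, 32 with the replicate block and 180 when all arrays were fitted together. It was 2 to 52 without 1 liver (omitting wild-type liver 1, mutant liver 2 or mutant liver 3 gave 2, wild-type liver 3 gave 6, wild-type liver 4 gave 24 and mutant liver 1 gave 52). The causes were not tested. No pairing of mice across genotypes by replicate number was seen, though with so few arrays per group a pairing could be missed. Deviations of same-numbered arrays correlated at -0.106 to 0.0141 and those of differently numbered arrays at -0.148 to 0.23. The replicate block changed the call of no member probe.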
